A study of Homo sapiens with 9 samples.

Results

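The genes described here are 10 genes by which epithelial and mesenchymal cells are told apart, chosen by symbol from 26625 genes measured: CDH1, EPCAM, ESRP1, CLDN1 and OCLN on the epithelial side and CDH2, VIM, ZEB1, ZEB2 and SNAI2 on the mesenchymal side. They were measured in total RNA of cultured human cell lines, reverse transcribed from the poly(A) tail with adaptor-flanked oligo(dT) primers in the CLT-seq ligation protocol and sequenced. HEK293T descends from human embryonic kidney cells transformed with viral genes, and A549 from a lung carcinoma, its cells being labelled epithelial; the genotype of both is given as WT, and neither received a treatment. HEK293T grew in DMEM high glucose and A549 in F-12K, both with FBS, so medium and cell line cannot be told apart. Of 9 libraries in the series, 7 had counts per gene. For HEK293T these were 1 library each with the unanchored primers T12 (biological replicate 1), T18 and T30, which end in a plain run of T of that length, and with the anchored primers T18V, T18VN and T18VNN, in which 18 T are followed by a base other than T and by 0, 1 or 2 arbitrary bases. For A549 there was 1 library, with T12 (biological replicate 2). No combination of cell line and primer had a second library with counts.

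In an epithelium, neighbouring cells are held together by E-cadherin and sealed by tight junctions, and epithelial splicing factors set the isoforms of many transcripts. In the epithelial-mesenchymal transition, repressors of the SNAI and ZEB families bind E-box sequences at epithelial genes and lower their transcription, while N-cadherin and vimentin come up. Cultured lines often hold genes of both programmes. SNAI and ZEB proteins bind the E-box CAGGTG, which is CACCTG when read from the other strand. RefSeq promoters (GRCh38.p14, 250 bases before to 50 after the gene start) were searched for this motif on both strands. Promoters were matched for 6 of the 10 genes (CDH2, VIM, ZEB1, ZEB2, CLDN1 and OCLN); CDH1, EPCAM, SNAI2 and ESRP1 had no entry. The letters were found in 2 of the 6, ZEB1 and OCLN, 1 time in each, and in 20.6% of all 35116 promoters of this length. The promoters of these genes are shown together with those of CLDN1 and VIM, whose levels below were higher in A549; capitals mark CAGGTG, which starts at -57 in ZEB1 and -33 in OCLN counted from the gene start, and CLDN1 and VIM hold no match in this window.
ZEB1 promoter, chr10:31318167-31318466, plus strand: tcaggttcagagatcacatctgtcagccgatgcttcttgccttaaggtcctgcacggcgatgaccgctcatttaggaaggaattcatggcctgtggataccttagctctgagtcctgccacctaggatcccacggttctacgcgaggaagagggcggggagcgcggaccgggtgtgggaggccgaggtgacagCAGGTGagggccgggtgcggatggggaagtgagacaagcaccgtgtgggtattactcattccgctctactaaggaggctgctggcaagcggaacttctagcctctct
OCLN promoter, chr5:69492297-69492596, plus strand: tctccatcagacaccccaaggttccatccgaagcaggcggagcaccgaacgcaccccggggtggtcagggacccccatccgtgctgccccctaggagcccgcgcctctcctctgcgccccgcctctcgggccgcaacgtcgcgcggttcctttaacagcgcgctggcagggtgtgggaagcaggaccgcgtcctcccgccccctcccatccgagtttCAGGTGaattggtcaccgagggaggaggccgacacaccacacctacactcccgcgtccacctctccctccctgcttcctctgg
CLDN1 promoter, chr3:190322397-190322696, minus strand: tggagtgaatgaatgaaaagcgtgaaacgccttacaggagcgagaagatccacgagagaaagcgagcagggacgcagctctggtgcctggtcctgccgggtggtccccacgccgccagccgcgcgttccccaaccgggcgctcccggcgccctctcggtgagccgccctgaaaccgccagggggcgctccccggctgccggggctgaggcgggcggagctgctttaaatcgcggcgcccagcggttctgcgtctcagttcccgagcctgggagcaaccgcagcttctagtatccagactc
VIM promoter, chr10:17227991-17228290, plus strand: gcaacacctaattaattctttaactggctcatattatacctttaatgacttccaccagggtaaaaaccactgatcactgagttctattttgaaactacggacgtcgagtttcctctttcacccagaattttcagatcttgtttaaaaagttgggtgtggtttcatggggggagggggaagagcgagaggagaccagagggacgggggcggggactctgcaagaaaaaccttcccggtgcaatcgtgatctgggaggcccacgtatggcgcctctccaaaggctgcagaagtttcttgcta

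An oligo(dT) primer pairs with the poly(A) tail, and an anchored primer also with the last bases before it. Transcript 3' ends were taken from GENCODE release 29 (GRCh38) through the RefSeq accession. The last 30 bases of the CDH2, VIM and ZEB2 transcripts, the stretch next to the tail, are shown for 3 of the 5 genes whose reads were compared between primer classes, since the primers pair beside it; capitals mark AATAAA or ATTAAA, the poly(A) signal, searched on the transcript strand only. Of 18247 protein-coding transcripts matched in this way, 62.6% held either hexamer in their last 30 bases. Of the compared genes not shown, SNAI2 held a hexamer there and ZEB1 did not.
CDH2 transcript end: ttctgAATAAAatgctaattttggatctgg
VIM transcript end: gttctgcttcAATAAAtctttggaaaaact
ZEB2 transcript end: atacatgaagATTAAAgtgatgacaaatga
Runs of at least 12 A inside a transcript, to which the T12 primer could pair in full, were present in 9.96% of these transcripts. Among the 10 genes only CDH2 and ZEB2 held such a run, of 15 A ending 196 bases before the transcript end in CDH2 and of 12 A ending 525 bases before it in ZEB2. The CDH1 transcript searched was much shorter than the one counted (2567 against 4885 bases), so a run in the rest of CDH1 would not have been seen. Lengths also differed for ZEB1 (6267 against 6638, in another of its transcripts), ZEB2 (9541 against 9243) and SNAI2 (2010 against 2112). The end and distance given for ZEB2 may therefore not be those of the counted transcript. The runs of CDH2 and ZEB2 are shown in capitals; whether reads start there cannot be seen in counts per gene.
CDH2 internal run: ttgtaccAAAAAAAAAAAAAAAggaaagga
ZEB2 internal run: atccatgttAAAAAAAAAAAAgacctcctt

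The A549 library had 1498224 reads on genes and the HEK293T libraries had 2215977 (T30) to 5200705 (T18). Levels are given in CPM, the reads of a gene scaled to a common total of reads on genes. Their 95% exact Poisson intervals cover counting error alone: no molecular identifiers are named for these counts, and reads without them are not independent molecules. A count of 3 reads, the limit that a count of 0 allows, was 2.00 CPM in A549 and 0.577 to 1.35 CPM in the HEK293T libraries. The T18 library stood apart in that ZNF557 took 7.20% of its gene reads, where the most abundant gene took 1.37% to 2.15% in the other 6 libraries. The labels were compared with marker genes. The 6 simple epithelium markers summed to 3875 CPM in A549 and to 13.4 to 31.0 CPM in HEK293T. Among them, in A549, the keratins KRT7, KRT8 and KRT18 had 1370, 1027 and 1296 CPM. The keratin KRT19 had only 27 reads there, CDH1 had 245 and EPCAM 0. In HEK293T, KRT7 and KRT19 had 0 reads in all 6 libraries. All 7 alveolar lung markers on the list (SFTPA1, SFTPA2, SFTPB, SFTPC, SFTPD, NKX2-1 and NAPSA) had 0 reads in A549. The 6 fibroblast markers summed to 38.7 CPM in A549, nearly all from COL1A1, with COL1A2, COL3A1, DCN and PDGFRA at 0, and to 8.88 to 31.7 CPM in HEK293T, with COL1A2, DCN and LUM at 0 in all 6 libraries. Endothelial and leukocyte markers, 4 each, were at 0 in A549 and summed to at most 0.278 and 1.67 CPM in a HEK293T library.

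The first comparison asked how the genes differ between A549 and HEK293T with the same T12 primer. CDH1 (E-cadherin), VIM (vimentin), ZEB1 and CDH2 (N-cadherin) were higher in A549, and ZEB2 and SNAI2 were lower, so genes of both programmes stood on the A549 side. With 1 library per line there is no test and no replicate check, and fewer cells with a transcript and less RNA per cell cannot be told apart. A gene was counted where it had at least 20 reads in the higher library, at a threshold of 2-fold on log2(CPM + 1), a scale that understates the change of low genes. Of the 10 genes, 6 had enough reads, and all 6 passed 2-fold, 4 upwards and 2 downwards in A549. Of all 10145 genes with enough reads, 60.2% passed 2-fold, 31.0% upwards and 29.2% downwards, so a difference of that size was common. A549 lay outside the range of all 6 HEK293T libraries for these 6 genes, above it for 4 and below it for 2; of 12325 genes with 20 reads in any of the 7 libraries, 56.8% lay outside the range, 29.6% above and 27.3% below. TMM scaling, which moved the median log2 ratio of all genes from 0.02 to -0.24, left 3 genes higher and 2 lower.

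**Figure D1:**
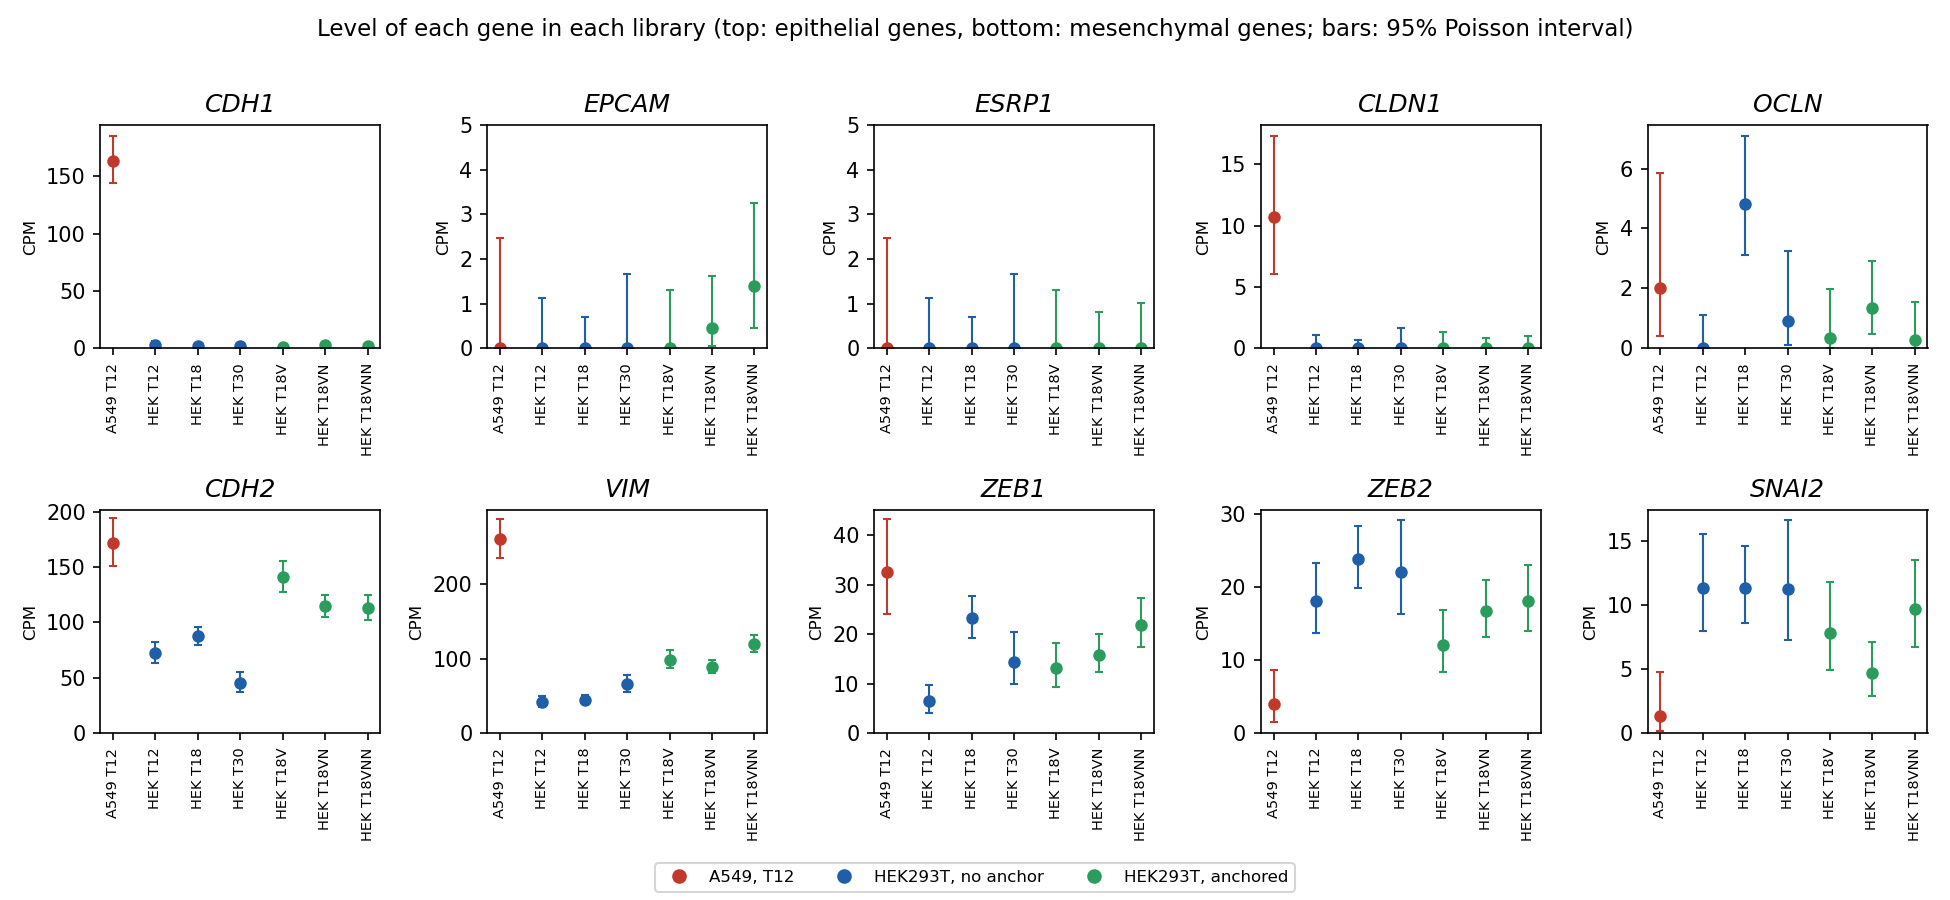
Level of each of the 10 genes (CPM, linear axis from 0, scale differing between panels) in the A549 library (red) and in the HEK293T libraries made with unanchored (blue) and anchored (green) primers; bars are 95% Poisson intervals for counting error. CDH1 stands at 164 CPM in A549 and at most 3.37 CPM in HEK293T, while ESRP1 is at 0 everywhere and CLDN1 has reads in A549 alone.

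CDH1 encodes E-cadherin, the calcium-dependent adhesion molecule of adherens junctions, and lies on chromosome 16 (68771193 to 68869445, plus strand, hg19 as deposited). It had 245 reads in A549, or 164 CPM (144 to 185). In HEK293T it had 11 reads with T12, 12 with T18, 4 for the T30 primer, 3 with T18V, 12 with T18VN and 7 with T18VNN, which is 3.37, 2.31, 1.81, 1.07, 2.68 and 1.95 CPM. The A549 value lay far above all 6 HEK293T values, which did not differ beyond their counting intervals. With T12 in both lines the level was 48.5-fold higher in A549 (95% exact interval of the ratio 26.7 to 98.5, counting error only). On the log2(CPM + 1) scale the ratio was 5.24, and over the other 5 HEK293T libraries as comparator it ran from 5.48 to 6.31.

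CLDN1, a claudin that forms the sealing strands of tight junctions, lies on chromosome 3 (190023490 to 190040235, minus strand). It had 16 reads in A549, or 10.7 CPM (6.10 to 17.3), and 0 reads in each HEK293T library. Against the floor of 3 reads in HEK293T T12 it was at least 11.6-fold higher in A549, and against 3 reads over the 6 HEK293T libraries together at least 76.8-fold higher. Both bounds take the A549 level at 10.7 CPM and leave out its counting error. Its 16 reads fell short of the 20 needed for the counts above.

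OCLN encodes occludin, a membrane protein of the tight junction, and lies on chromosome 5 (68788119 to 68853931, plus strand). It had 3 reads in A549 and, in HEK293T, 0 with T12, 25 with T18, 2 for the T30 primer, 1 with T18V, 6 with T18VN and 1 with T18VNN. T18 held most of the HEK293T reads, at 4.81 CPM (3.11 to 7.10), above the A549 value of 2.00 CPM and the 0 to 1.34 CPM of the other 5. No fold change between the lines is given, since both T12 libraries were at or under the floor. All 3 transcript entries of OCLN held the same reads, and its pseudogene copy OCLNP1, on the same chromosome, had 1 read in all.

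EPCAM, an epithelial adhesion protein used to capture carcinoma cells, lies on chromosome 2 (47596287 to 47614167, plus strand). It had no read in A549, which allows up to 2.00 CPM. Among the HEK293T libraries it had 2 reads with T18VN and 5 with T18VNN, or 0.446 and 1.39 CPM, and 0 with the other 4 primers. ESRP1, an RNA-binding protein that sets epithelial splice forms, lies on chromosome 8 (95653364 to 95719694, plus strand) and had 0 reads in all 7 libraries. Over the 6 HEK293T libraries together 3 reads correspond to 0.139 CPM. So of the 5 epithelial genes, 2 were higher in A549 than in every HEK293T library, and 3 were at or near 0 in both lines with T12.

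CDH2 encodes N-cadherin, the adhesion molecule of neural and mesenchymal cells, and lies on chromosome 18 (25530927 to 25757410, minus strand). It had 257 reads in A549, or 172 CPM (151 to 194). In HEK293T it had 72.6 CPM with T12, 87.7 with T18, 45.6 for the T30 primer, 141 with T18V, 114 with T18VN and 113 with T18VNN. A549 was above all 6, but T18V came close, and their counting intervals overlapped (128 to 156 for T18V). With T12 in both lines CDH2 was 2.36-fold higher in A549 (1.97 to 2.83), a log2 ratio of 1.23, against 0.28 over T18V. TMM scaling brought the ratio to 0.96 and the recovered library total to 0.83, both under the 2-fold threshold; relative to the median of all genes they were 1.20 and 1.09.

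VIM encodes vimentin, the intermediate filament of mesenchymal cells, and lies on chromosome 10 (17270258 to 17279592, plus strand). It had 389 reads in A549, or 260 CPM (234 to 287), and 41.6, 45.0, 65.9, 98.5, 88.8 and 119.6 CPM in HEK293T with T12, T18, T30, T18V, T18VN and T18VNN. A549 lay above all 6 with no overlap of the counting intervals. The ratio with T12 was 6.23 (5.12 to 7.64), a log2 ratio of 2.61, and it was smallest over T18VNN, at 1.11. The span of VIM overlaps VIM-AS1 on the other strand, which had at most 5 reads in a library.

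ZEB1 and ZEB2 are zinc finger and homeodomain repressors of epithelial genes. ZEB1, on chromosome 10 (31607424 to 31818742, plus strand), had 49 reads in A549, or 32.7 CPM (24.2 to 43.2), and 6.43, 23.3, 14.4, 13.2, 15.8 and 21.97 CPM in HEK293T with T12, T18, T30, T18V, T18VN and T18VNN. ZEB1 was 5.09-fold higher in A549 than in HEK293T T12 (2.99 to 8.93), but T12 was the lowest HEK293T library for it, and the log2 ratio of 2.18 was 0.47 over T18 and 0.55 over T18VNN. ZEB2, on chromosome 2 (145141942 to 145277958, minus strand), had 6 reads in A549, or 4.005 CPM (1.47 to 8.72), and 18.1, 23.8, 22.1, 12.1, 16.7 and 18.1 CPM in HEK293T in the same order. It was 4.51-fold lower in A549 than in HEK293T T12 (1.95 to 12.8), and A549 was below all 6 HEK293T libraries. The paralogues thus stood on opposite sides: ZEB1 higher and ZEB2 lower in A549.

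SNAI2 (Slug), a zinc finger repressor of the SNAI family that also marks neural crest, lies on chromosome 8 (49830236 to 49833999, minus strand). It had 2 reads in A549, or 1.33 CPM (0.162 to 4.82), and 37, 59, 25, 22, 21 and 35 reads in HEK293T with T12, T18, T30, T18V, T18VN and T18VNN. In CPM the HEK293T values were 11.3, 11.3, 11.3, 7.83, 4.69 and 9.73, all above A549. The ratio with T12 was 8.49-fold lower in A549, with a wide counting interval of 2.19 to 72.7 because it rests on 2 reads.

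**Figure D2:**
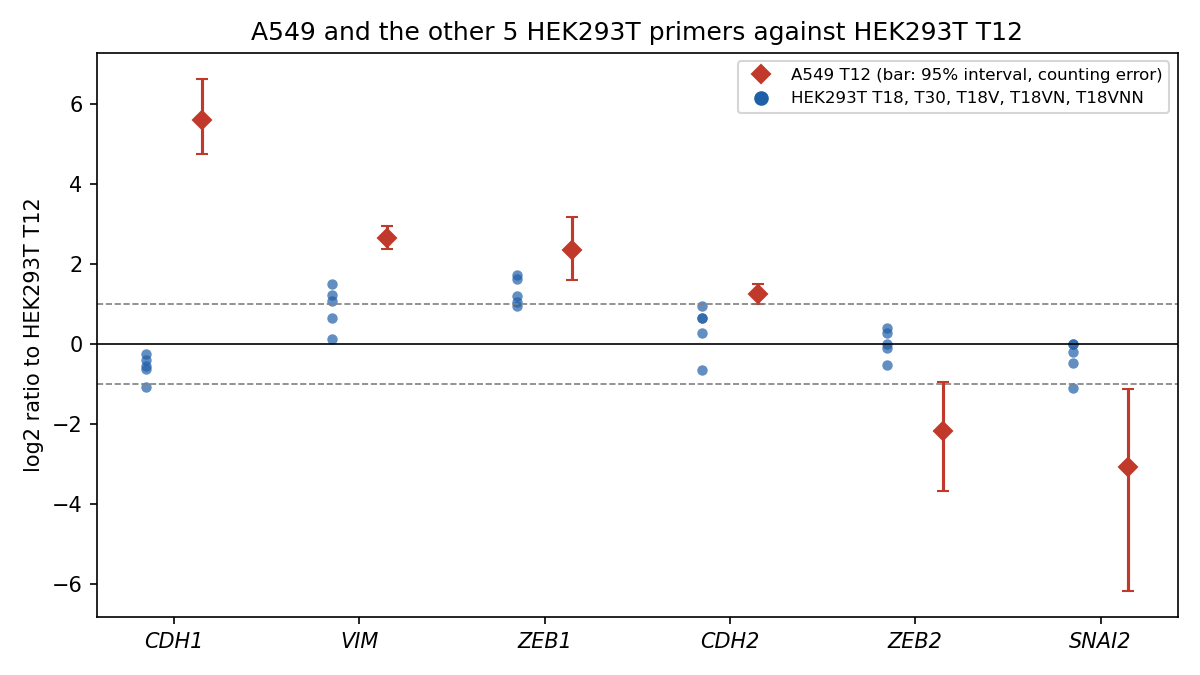
Log2 ratio to the HEK293T T12 library for the 6 genes with enough reads: red diamonds are A549 T12 with the 95% exact interval of the ratio (counting error only, no pseudocount), blue points are the other 5 HEK293T libraries on the log2(CPM + 1) scale, and dashed lines mark 2-fold. A549 lies outside the blue points for all 6 genes, and blue points of CDH1, VIM, ZEB1 and SNAI2 themselves pass 2-fold.

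The other HEK293T libraries, each made with another primer, show how far these genes moved within 1 cell line. With 1 library per primer, the primer and the library cannot be told apart. Against HEK293T T12, the share of all genes that differed at least 2-fold was 29.1% with T18, 36.9% for the T30 primer, 40.0% with T18V, 36.9% with T18VN and 39.1% with T18VNN. Of the 5 or 6 genes described here with enough reads, ZEB1 and OCLN did so with T18, ZEB1 with T30, VIM with T18V, VIM, ZEB1 and SNAI2 with T18VN, and VIM and ZEB1 with T18VNN. The highest HEK293T library was 3.62 times the lowest for ZEB1, 3.16 times for CDH1, 3.10 for CDH2, 2.87 for VIM, 2.42 for SNAI2 and 1.97 for ZEB2. CDH2 and ZEB2 stayed under 2-fold against T12 with all 5 primers, CDH2 reaching a log2 ratio of 0.95 with T18V. CDH1 had under 20 reads in every HEK293T library and was not counted.

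Compared per kilobase of transcript, the order of the genes differed between the lines. Reads primed from the tail need not cover a transcript evenly, so this scale is rough between genes. In A549, the CPM per kilobase was 122 for VIM, 39.6 for CDH2 and 33.5 for CDH1. The CDH2 to CDH1 ratio was 1.18 (95% exact interval 0.988 to 1.41), so that neighbouring pair did not differ beyond counting error. In HEK293T the same ratio was 24.3 with T12 (13.3 to 49.3), 42.8 with T18, 28.5 for the T30 primer, 149 with T18V, 48.2 with T18VN and 65.5 with T18VNN. N-cadherin thus exceeded E-cadherin in all 6 HEK293T libraries and was level with it in A549. VIM exceeded CDH2 3.07-fold per kilobase in A549 (2.62 to 3.61), and the HEK293T libraries spanned the range from level to nearly that value. The pair did not differ beyond counting error with T12 (1.16, 0.936 to 1.44) and T18 (1.04, 0.886 to 1.22), and VIM was the higher with T30 (2.93, 2.26 to 3.82), T18V (1.42, 1.21 to 1.66), T18VN (1.57, 1.38 to 1.80) and T18VNN (2.14, 1.87 to 2.46). The ZEB2 to ZEB1 ratio per kilobase was 0.0879 in A549 (0.0308 to 0.205) and 0.591 to 2.02 in HEK293T. It was above 1 beyond counting error with T12 alone (1.21 to 3.50) and below 1 beyond it with T18 (0.568 to 0.953) and T18VNN (0.419 to 0.831).

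The loci of the ZEB genes held further transcripts. ZEB2 has a short noncoding entry at its 5' end (chromosome 2, 145268952 to 145277958, hg19) beside the long coding ones used above. Its reads were 0 in A549 and 8, 97, 38, 24, 45 and 13 in HEK293T with T12, T18, T30, T18V, T18VN and T18VNN, or 2.45, 18.7, 17.1, 8.54, 10.04 and 3.61 CPM. The coding entries had 59 reads with T12 and 124 with T18, so the count of the noncoding entry differed more between these libraries. The cause of this was not tested. The noncoding entry lies inside the span of the coding ones on the same strand, so some reads may be counted in both. ZEB2-AS1, which overlaps the start of ZEB2 on the other strand, had 27 reads with T18, 13 with T30, 9 with T18VN, 7 with T18VNN, 3 with T18V and 0 with T12 and in A549. ZEB1-AS1, which runs from the start of ZEB1 on the other strand, had 34 reads with T18VN, 5 in A549 and at most 2 elsewhere. Whether strand was used in counting is not stated, and where a gene and its antisense partner overlap their reads cannot be separated.

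The second comparison asked whether anchored primers give other levels than unanchored ones in HEK293T. None of the 5 genes tested (CDH2, VIM, ZEB1, ZEB2 and SNAI2) had an adjusted p under 0.05 in edgeR's quasi-likelihood test with Benjamini-Hochberg adjustment, against 1.35% of all 10887 genes (0.781% higher and 0.569% lower with an anchor); 1 of the 5, VIM, had an unadjusted p under 0.05, as did 1694 (15.6%) of all genes, and DESeq2 called none of the 4 to which it gave an adjusted p (SNAI2 had none), against 7.91% of 7697 genes with one. Primers stand in for replicates here, with 3 in each class and 1 library each. The other 5 genes did not pass the filter on low counts. Before that filter, reads on genes overlapped between the classes, at 2810884 to 4480945 in anchored and 2215977 to 5200705 in unanchored libraries. The mean for VIM was 50.8 ± 13.1 CPM (SD, n = 3) in unanchored and 102 ± 15.7 CPM (SD, n = 3) in anchored libraries; its fitted log2 difference was 0.83 (SE 0.34, edgeR adjusted p = 0.266). For CDH2 the means were 68.6 ± 21.3 and 123 ± 15.8 CPM (SD, n = 3 each) and the log2 difference 0.67 (SE 0.33, edgeR adjusted p = 0.366). For SNAI2 they were 11.3 ± 0.0329 and 7.41 ± 2.55 CPM (SD, n = 3 each) and the log2 difference -0.78 (SE 0.58, edgeR adjusted p = 0.578).

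The 2 classes did not overlap for VIM and CDH2, with the anchored libraries on top, nor for SNAI2, with the anchored libraries at the bottom. The exact two-sided permutation test gave p = 0.1 for each of the 3, the smallest value that 3 against 3 allows. Groups that do not overlap were common: 23.6% of the genes tested showed this, 16.8% with the anchored libraries above and 6.80% with them below. ZEB2 came close to the pattern, with 21.3 ± 2.96 and 15.6 ± 3.14 CPM (SD, n = 3 each), but T12 and T18VNN were level at 18.1 CPM (log2 difference -0.62, SE 0.43, edgeR adjusted p = 0.546). The overlaps, means and permutation tests used CPM without TMM scaling, which the fitted log2 differences include. TMM factors over all libraries were 0.947 for T12 and 1.06 for T18VNN, so the ZEB2 overlap holds for unscaled CPM only. ZEB1 overlapped fully, at 14.7 ± 8.42 and 17.0 ± 4.51 CPM (SD, n = 3 each), with a log2 difference of 0.02 (SE 0.55, edgeR adjusted p = 0.992), whose sign turned under other scalings.

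**Figure D3:**
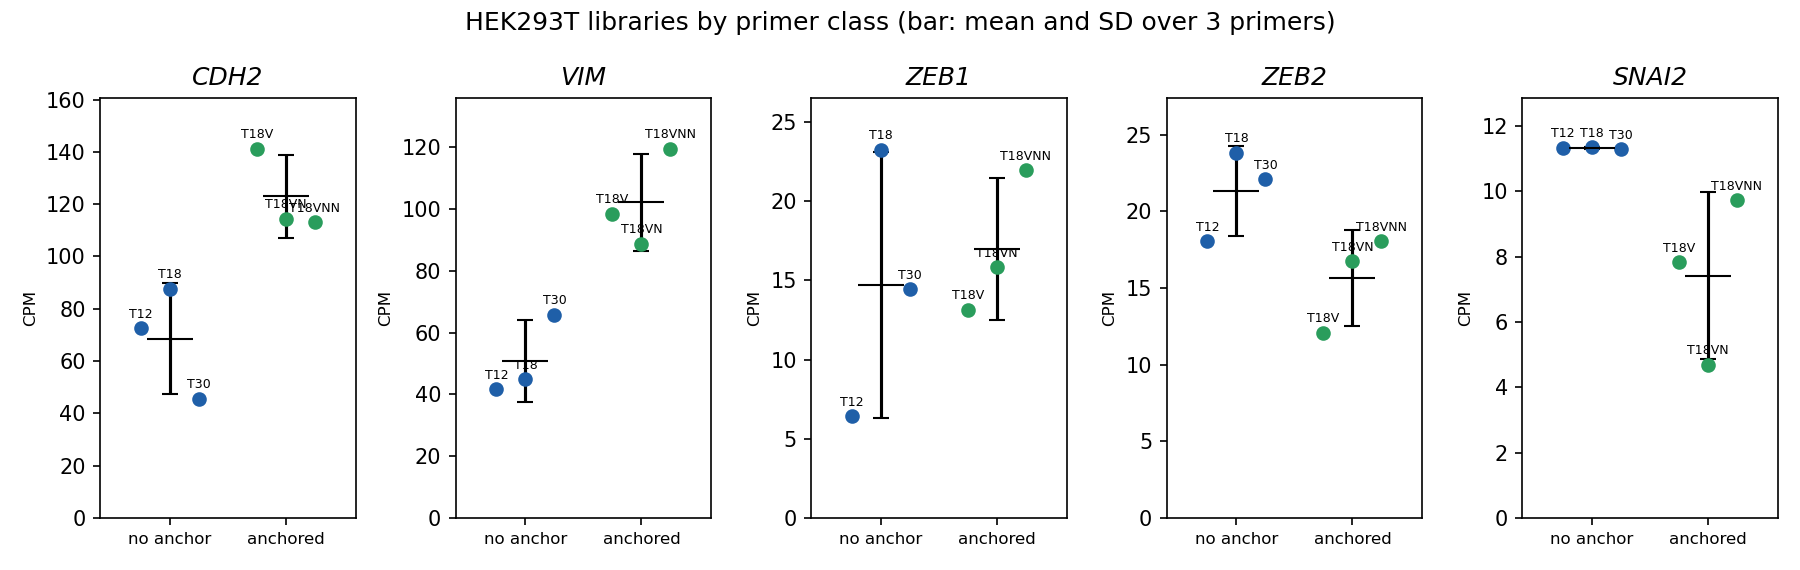
Level of the 5 tested genes (CPM, linear axes from 0) in the 3 unanchored (blue) and 3 anchored (green) HEK293T libraries, each point a primer, with the mean and SD over primers in black. The classes do not overlap for CDH2, VIM and SNAI2, and none of the 5 differences had an adjusted p under 0.05.

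The scaling decided whether VIM and CDH2 were called. When the library size was the recovered library total, the median of all genes shifted to 1.07 (log2); the share of the total that lay on genes was 27.7% to 37.5% in anchored and 11.7% to 20.3% in unanchored libraries. VIM then stood at 1.98 (adjusted p = 0.00765, edgeR) and CDH2 at 1.70 (adjusted p = 0.0243, edgeR), which relative to the shifted median is 0.91 and 0.63. Under that scaling 2264 of 10887 genes were called, 2212 higher and 52 lower, where the TMM fit called 147, 85 higher and 62 lower.

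Along the unanchored length series the genes took different orders, described without a test because each length had 1 library. VIM went from 41.6 CPM with T12 to 65.9 with T30, CDH2 was lowest with T30 at 45.6, and ZEB1 was lowest with T12 and highest with T18. SNAI2 was level, at 11.3 CPM with all 3 lengths. Along the anchor series T18V, T18VN, T18VNN, ZEB1 (13.2, 15.8 and 21.97 CPM) and ZEB2 (12.1, 16.7 and 18.1 CPM) ran in the same order, with counting intervals of T18V and T18VNN that overlapped for both.

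The wider programmes were described with lists of other genes. Of 57 genes on the epithelial list that the tables hold, 33 had enough reads with T12; 22 were 2-fold or more up in A549 and 7 were 2-fold or more down, with a median log2 ratio of 1.67 (1.74 with genes at 0 in either library set to their bound) against 0.02 for all genes, of which 31.0% were up and 29.2% down. The 24 others had too few reads in both T12 libraries, among them the epithelial transcription factors GRHL2 and OVOL2, which had 0 reads in all 7 libraries. The highest ratios on that scale were those of KRT7 (2052 A549 reads against 0 with HEK293T T12, at least 1491-fold higher), ELF3, an epithelial ETS factor (816 and 0 reads, at least 593-fold higher), KRT8 (279.5-fold, 159.6 to 542) and KRT18 (92.0-fold, 68.7 to 126). Lower in A549 were DSC2, a desmosomal cadherin (0 and 128 reads, at least 19.6-fold lower), CGN, the tight junction protein cingulin (7 and 188 reads, 12.3-fold lower), CDS1 (11 and 174 reads, 7.26-fold lower) and CLDN6 (0 and 20 reads, at least 3.06-fold lower). Over the HEK293T libraries DSC2 ran from 22.5 to 56.6 CPM and CGN from 51.4 to 92.1 CPM. For CDS1 and CLDN6, T12 was the highest HEK293T library. Their lowest HEK293T values were 8.54 and 0 CPM, beside 7.34 and 0 CPM in A549.

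Of 55 genes on the mesenchymal list, 31 had enough reads; 20 were 2-fold or more up in A549 and 4 down (31.0% and 29.2% of all genes), with a median log2 ratio of 2.35 (2.60 with bounds). Among the highest were CD44, a hyaluronan receptor (1042 and 2 reads, a ratio of 1136 with a counting interval of 314 to 9390), S100A4 (961 and 2 reads) and the fibrillar collagen gene COL5A2 (192 and 0 reads, at least 139.5-fold higher). Among those lower in A549 were FOXC1, a forkhead factor with 689 CPM in A549 and 10951 to 17153 CPM in HEK293T, FOXF1 (0 and 51 reads) and COL6A1 (6.12-fold lower). Of the EMT signalling list, 31 of 35 genes had enough reads. Of these 15 were higher and 6 lower beside the same shares of all genes, with a median of 0.77 (0.84 with bounds). On the log2(CPM + 1) scale TGFB2, TGFBR2, ID1 and SMAD3 of the TGF-beta and BMP pathways had the highest ratios. In CPM these were 70.7-fold, 154-fold, 43.4-fold and 38.9-fold higher. The TGFBR2 value rests on 2 reads with HEK293T T12 (counting interval 41.8 to 1281). For SMAD3, T12 was the lowest HEK293T library, at 7.66 CPM, beside 35.9 CPM in the highest and 298 CPM in A549. BMP7 (at least 35.3-fold), HDAC1 (6.28-fold), CTBP1 (5.56-fold) and FBXW7 (27 and 265 reads) were lower. CTBP1 ran from 43.8 to 260 CPM over the HEK293T libraries, beside 33.4 CPM in A549. In the anchored comparison 0 of 29 epithelial, 0 of 24 mesenchymal and 0 of 30 signalling genes tested had an adjusted p under 0.05 (edgeR), with 3, 5 and 6 at an unadjusted p under 0.05, where 15.6% of all genes had one. DESeq2 called 1 of 19, 2 of 17 and 3 of 26 with an adjusted p, and 7.91% of all genes with one.

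**Figure D4:**
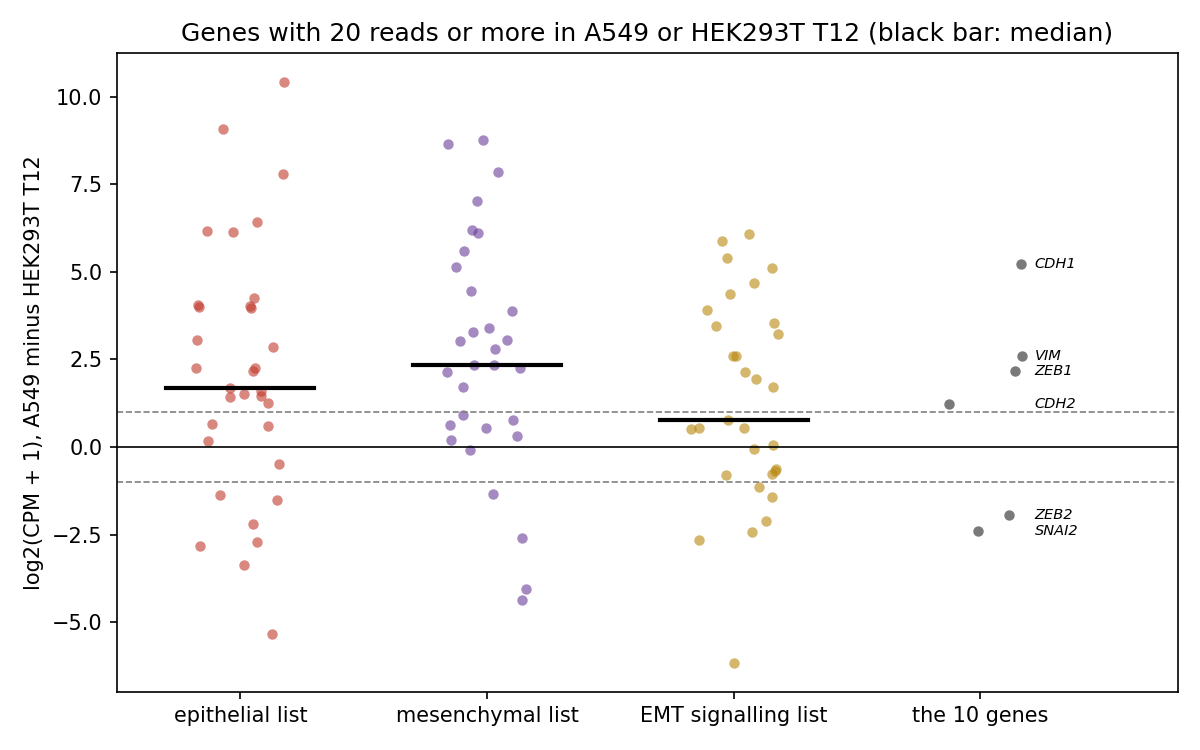
Log2(CPM + 1) in A549 minus that in HEK293T T12 for genes of 3 lists and for the 10 genes, where at least 20 reads were present in either library; each point is a gene, black bars are list medians, dashed lines mark 2-fold. The epithelial and mesenchymal lists have their medians above 2-fold at 1.67 and 2.35, and of the 10 genes ZEB2 and SNAI2 lie below the lower dashed line.

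The genes most like a member over the 7 libraries, by Pearson correlation of log2(CPM + 1) among 8254 genes with a mean of at least 10 CPM, were named as a description. For CDH1 they were EPB41L1, SAT1 and LAMA5 (r = 0.996, 0.996 and 0.995), and for VIM they were PLPP6, ELOVL1 and ARNT2 (0.993, 0.991 and 0.982). For ZEB2 they were BTRC, MANF and ODF2 (0.994, 0.991 and 0.983). Of the 7 points 1 is A549 and the 6 others share a cell line, so for CDH1 the value rests on the gap between the lines. Over the 6 HEK293T libraries alone VIM was near IMPDH1 and NPC2 (0.998 and 0.991) and CDH2 nearest to IFT27, IPPK and TOX4 (0.998, 0.992 and 0.987). These were picked for their high r among 7774 genes over 6 points, so an r near 1 does not by itself show shared regulation.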

How the data were processed

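Gene counts of 7 libraries (6 HEK293T, 1 A549) were used; 2 further libraries with poly(T) lengths alone, and gene body coverage, were not used here. The authors deposited a read count for each RefSeq transcript. Per the submitters' processing notes, the tools were FastQC 0.11.8, cutadapt 2.10, Trimmomatic 0.39, HISAT2 2.2.1 and SAMtools, with GRCh37 and hg19 as builds; annotation release, strand setting and reads with several matches are not given in the sources used here. The deposited FPM signal gave the library total as count divided by FPM, and the deposited FPKM values were not tested. Of 61177 entries, 60133 (98.3%) matched a RefSeq symbol (table on GRCh38.p14); the entry with most reads over the libraries was kept per gene. The primer classes entered a quasi-likelihood fit in edgeR 4.0.16 under R 4.3.3 (low counts removed by filterByExpr, TMM scaling, no covariates, Benjamini-Hochberg adjustment at 0.05), with DESeq2 1.42.0 as an alternative. The edgeR fit was also run on simulated data, with planted changes larger than the differences of the genes described here. That run does not show whether differences of their size would be called. The cell lines, with 1 library each, were compared without a test, with a pseudocount of 1 CPM. Ratio intervals are exact binomial. Folds against a count of 0 used a floor of 3 reads and the point value of the other library, without its counting error. P-values measure the spread between primers. Named genes were the 10 genes, the 4 highest and 4 lowest log2 ratios of each list and any list gene called between primer classes. GRHL2 and OVOL2 were named after their values were seen. Some genes that the rule names are not reported here. CD24 of the epithelial list was not analysed here. The genes and lists were chosen with earlier results of these data known.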

Additional observations from a re-analysis of the deposited data

Results flagged for a closer look

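OCLN in HEK293T T18, at 4.807 CPM (25 reads), lay apart from the other 5 HEK293T libraries (0 to 1.34 CPM): the gap to the next library was a larger part of the whole range than Dixon's 95% limit for 6 values. The gene was among the 6 checked only because T18 itself had 20 reads or more, so the usual chance rate of about 1 group in 20 does not apply and the value is a description. T18 is also the deepest library and the one in which ZNF557 took 7.20% of gene reads; their part in the OCLN value was not tested.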

How the results depend on the processing

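No paired analysis was possible because the groups compared share fewer than 2 replicate numbers among the libraries with counts. Depth limits the low genes: 3 reads are 2.00 CPM in A549. In the cell line comparison the 6 genes kept their direction in all 13 alternatives, most of which could not have changed it. A read minimum, a fold threshold or a pseudocount cannot turn a direction. With another HEK293T library as comparator, the direction followed from A549 lying outside the range of all HEK293T libraries. Only TMM scaling, the recovered library total and the longest transcript entry could have turned it. The number at least 2-fold higher was 2 with HEK293T T18 or T18VNN as comparator, where it was 4 with T12, and the number lower was 1 when 50 reads or a 4-fold difference was required, where it was 2. Epithelial genes at least 2-fold lower were 4 over T18V instead of 7, and mesenchymal genes lower were 7 over T18VN instead of 4. Mesenchymal genes at least 2-fold higher, 20 of 31 over T12, were 15 of 32 over T18VNN and 17 of 31 over T18V. Over T18 and over T30 they were 21 of 32. For the primer classes, no gene of the 10 was called in any alternative with an adjusted p except with the recovered library total. That scaling called 2 of the 5 tested (VIM and CDH2), beside 2264 of all 10887 genes. Of the lists it called 7 of 29 epithelial, 7 of 24 mesenchymal and 5 of 30 signalling genes. That scaling also turned ZEB2 to 0.43 and SNAI2 to 0.30 (log2), below the shifted median of 1.07. DESeq2 called 1 of 19 epithelial, 2 of 17 mesenchymal and 3 of 26 signalling genes with an adjusted p, beside 609 of all 7697. The fit without a filter called 0 of 42, 2 of 45 and 2 of 35 genes of these lists, beside 556 of all 16404. ZEB1, at 0.02, turned to -0.0166 with DESeq2 size factors and to -0.0167 with the DESeq2 test, and ran from -0.36 (without T12) to 0.52 (without T18) when each library was left out. Over all genes the count of 147 became 609 with DESeq2, 556 without a filter and 46 (without T18VNN) to 111 (without T18VN) when each library was left out, with 54 without T30, 63 without T18V and 85 without T18; the cause was not tested.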

Other observations

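Of 6 kidney lineage genes, 3 were higher in every HEK293T library than in A549, 2 were higher in A549 than in any of them, and WT1, at 12.7 CPM in A549, lay inside the HEK293T range of 4.06 to 17.8 CPM. SIX2 and EYA1, factors of the nephron progenitor, had 40.2 to 205 and 17.8 to 101 CPM in the HEK293T libraries and 0 reads in A549, and PAX2 had 13.2 to 31.3 CPM in HEK293T and 4.005 CPM in A549. PAX8 had 4 reads in A549 and 0 in all 6 HEK293T libraries, and LHX1 was higher in A549 (16.7 CPM) than in any HEK293T library (1.39 to 13.5 CPM). NKX2-1, the lung and thyroid homeobox factor, had 3.16 to 11.7 CPM in HEK293T and 0 reads in A549, which allows up to 2.00 CPM. With 1 A549 library these are values without a test.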
